A study of Mus musculus with 3 samples.

Results

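The RNA of FSP1+ fibroblasts of the infarcted mouse heart was compared with that of αSMA+ fibroblasts, from 1 library of each. All genes were taken that could be given a symbol from the position of their table entry on GRCm38, where the entry stood alone at its locus, and whose FPKM (mapped fragments scaled for transcript length and for the size of the library) was 1 or more in either library. This gave 11238 measured genes, 10376 of them protein coding, out of 31930 entries, 18244 of which had a symbol. The measure is the log2 of the ratio of FPKM with 1 added, FSP1+ over αSMA+, so that a positive value means a higher level in FSP1+. The added 1 understates the ratio of low genes. With 1 library a side there is no replicate check, and no test was run. All sizes therefore describe this pair of libraries and not the conditions.

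The study sequenced 3 libraries of heart fibroblasts, and the 2 compared here were made 10 days after myocardial infarction, produced by tying the left anterior descending artery. FSP1+ cells came from FSP1-GFP transgenic mice, in which the promoter of FSP1 (the gene S100a4) drives GFP, and they were sorted as GFP+ cells without CD45 and CD31, the surface markers of blood and endothelial cells. αSMA+ cells came from αSMA-GFP transgenic mice, in which the promoter of αSMA (the gene Acta2) drives GFP, and were sorted on GFP alone. Both lines had the C57/BL6 background, and the mice were 12 weeks old by the labels. Each sort pooled several infarcted hearts, and RNA was taken from freshly sorted cells. The third library, from uninjured hearts of C57/BL6 mice, was made otherwise. By the study's methods its cells were not sorted, and those that attached to culture plastic were collected for RNA. GFP marks cells in which the promoter is or was in use, so a transgene of this kind is an indirect marker of the protein. The strain of the reporter, the gate and the label cannot be told apart.

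After an infarct, dead muscle is replaced by scar. Fibroblasts proliferate, lay down collagen, and may gain contractile proteins such as αSMA, when they are called myofibroblasts. They also signal to leukocytes through chemokines and cytokines of the IL-6 family, and remodel the matrix through proteases and hyaluronan. S100A4, also named FSP1, is a small calcium-binding protein that is found in fibroblasts and in some leukocytes.

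The genes whose promoters drive GFP were read first. S100a4 (chromosome 3, 90603770 to 90606045, plus strand) had 30.8 FPKM in the library labelled FSP1+ and 12 FPKM in that labelled αSMA+ (log2 ratio 1.29), the order its label gives. Acta2 (chromosome 19, 34240336 to 34255373, minus strand) had 279.8 FPKM in the library labelled FSP1+ and 65 FPKM in that labelled αSMA+ (log2 ratio 2.09), which is against the label. The library labelled FSP1+ thus held more of both reporter transcripts, and the libraries are called by their labels throughout. In the sample records of the library labelled αSMA+ and of that from uninjured hearts, the number in the title differs from the number in the description, and the number in the αSMA+ title is the one in the description of the uninjured library. Whether any label is wrong could not be checked from the files, so every value given as αSMA+, and the ratio through the uninjured library, rests on the label. From its sequencing, the study reports Col1a1, Col1a2 and Col3a1 as higher in αSMA+ fibroblasts, and Il6, Il6r and Itga2 as higher in FSP1+. From a PCR array it reports Ccl12, Ccr2, Cxcr4 and Tnf as lower, and Mmp2, Mmp13 and Vegf as higher, in FSP1+. By label, these genes stood in the reverse order here, with Vegfa read for Vegf and Il6ra for Il6r. Cdh5, Itga6 and Itgb2, reported as higher in FSP1+, and Ccl3, reported as lower, kept the reported order. Of these genes, Il6ra, Itga2, Tnf, Itgb2 and Ccl3 were less than 2-fold apart. The study also measured proteins of cultured cells, among them more secreted VEGF from FSP1+ fibroblasts, which were not compared here. Higher and lower below refer to the library labelled FSP1+ relative to that labelled αSMA+.

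Of the 11238 measured genes, 2156 (19.2%) were at least 2-fold higher and 1605 (14.3%) at least 2-fold lower, and the median log2 ratio was 0.03. A difference of 4-fold was reached by 404 genes that were higher and 246 that were lower, and one of 8-fold by 76 and 89. Which side held more depended on scaling. With both libraries rescaled to the same total, 2638 were higher and 1593 lower. With the ratio taken through the third library of the study, from uninjured hearts, 1702 were higher and 2364 lower, and the median of all genes then stood at −0.17. Genes at 1 FPKM or more in both libraries numbered 8972, those so only in the library labelled FSP1+ 803, and those so only in that labelled αSMA+ 1463. Read numbers are not tabulated. The lowest values of genes with a single transcript imply about 15.1 reads behind 1 FPKM on a transcript of 1 kb in the library labelled FSP1+ and about 9.66 in that labelled αSMA+, so low values were coarser in the second.

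**Figure D1:**
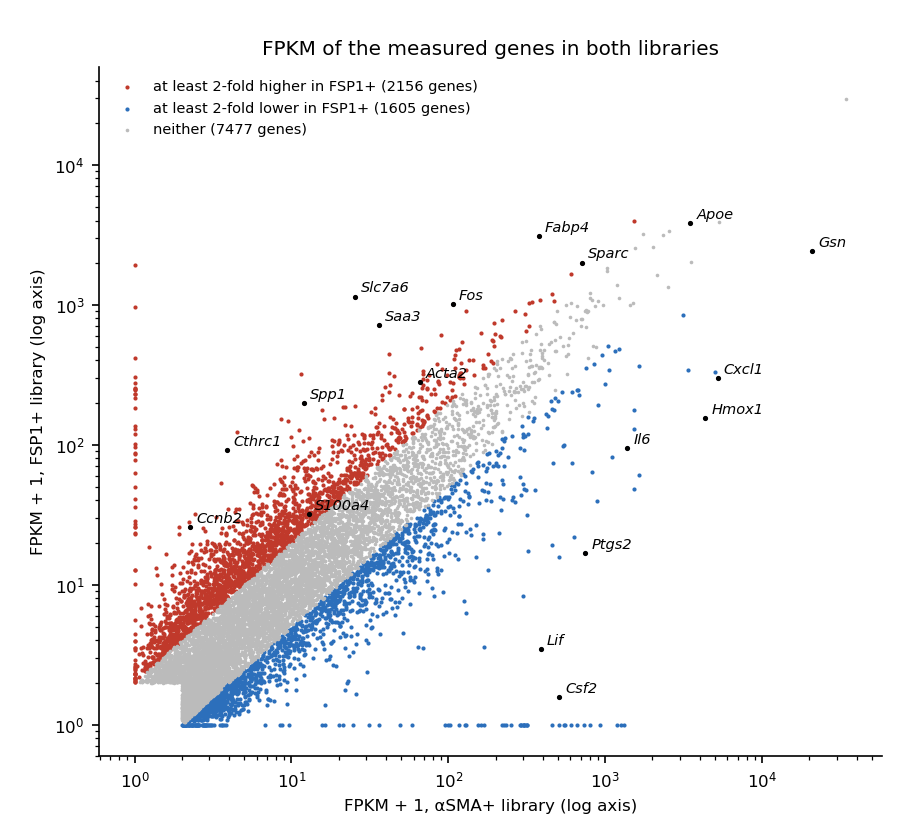
FPKM with 1 added of the 11238 measured genes in the library labelled FSP1+ (vertical, log axis) against that labelled αSMA+ (horizontal, log axis); each point is a gene. The 2156 genes at least 2-fold higher lie above the grey band and the 1605 at least 2-fold lower below it, and the points furthest below, such as Lif, Csf2 and Ptgs2, lie further from the band than most points above it.

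The ratio moved with the base composition of the transcript. In 5 equal groups of protein-coding genes by GC content, from the lowest to the highest, the median log2 ratio was −0.44, −0.23, 0.02, 0.46 and 0.82. The share at least 2-fold higher was 5.11% in the lowest group and 43.0% in the highest, and the share at least 2-fold lower was 21.3% in the lowest and 5.30% in the highest. By transcript length the medians ran from 0.41 for the shortest group to −0.20 for the longest. The part of GC and length in the results below was not tested. Where the text gives the median of a list, a second median, called centred, stands beside it. For it, the median of all genes in the same class of transcript length and GC (36 classes) was subtracted from every ratio. Some lists are given by their counts alone. Among the centred ratios 1486 genes were at least 2-fold higher and 1415 at least 2-fold lower.

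**Figure D2:**
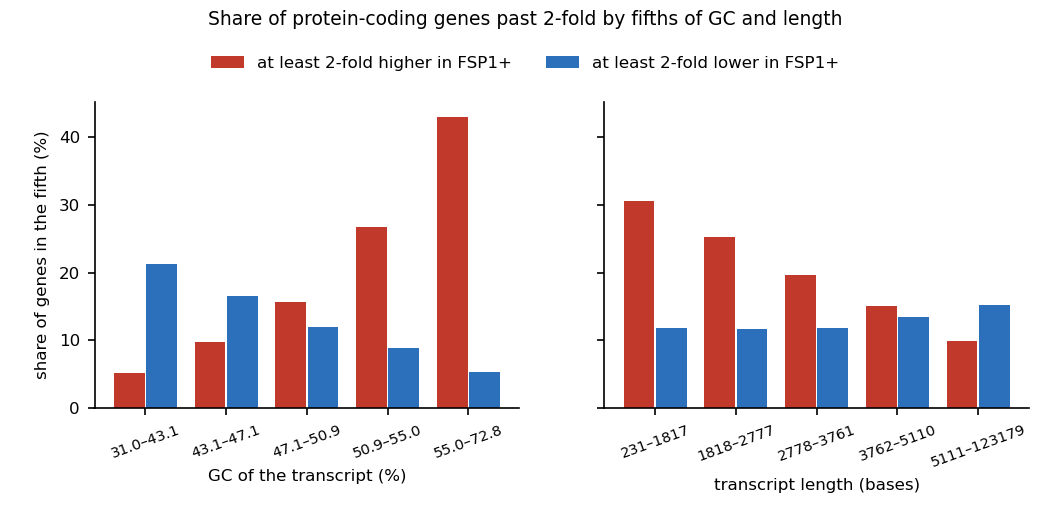
Share of protein-coding genes (percent, vertical) that were at least 2-fold higher (red) or lower (blue) in the library labelled FSP1+, in 5 equal groups of genes by GC content of the transcript (left, percent) and by transcript length (right, bases). The red bars climb with GC between 5.11% and 43.0%, and the blue bars fall between 21.3% and 5.30%.

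The sort of the library labelled FSP1+ excluded CD31+ and CD45+ cells. Endothelial markers and most macrophage markers were nonetheless higher in it, whereas the lists of lymphocyte genes and of dendritic cell and class II genes had no member at least 2-fold higher. Of 26 endothelial markers, 22 were measured, of which 21 were at least 2-fold higher and 0 at least 2-fold lower (median 1.94, centred 1.86). Their summed level was 5201 FPKM in the library labelled FSP1+ and 899 FPKM in that labelled αSMA+, and none was listed at 0 in either. Pecam1, which encodes CD31, had 157 FPKM in the library labelled FSP1+ and 41.8 FPKM in that labelled αSMA+ (log2 ratio 1.88). Cdh5, the cadherin of endothelial junctions, had 64.1 FPKM (labelled FSP1+) against 11.2 FPKM (labelled αSMA+), a log2 ratio of 2.41. The fatty acid carrier Fabp4, a gene of capillary endothelium and of fat cells, had 3083 FPKM in the library labelled FSP1+ and 376 FPKM in that labelled αSMA+ (log2 ratio 3.03).

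Of 27 macrophage and monocyte markers, 24 were measured, and 17 were higher by 2-fold or more and 1 lower (median 1.43, centred 1.02, with 13 higher after centring). They summed to 4918 FPKM in the library labelled FSP1+ and 1778 FPKM in that labelled αSMA+, with none listed at 0. Ptprc, which encodes CD45, differed by less than 2-fold, with 12.1 FPKM in the library labelled FSP1+ and 9.0 FPKM in that labelled αSMA+ (log2 ratio 0.39). C1qb, a chain of complement C1q made by tissue macrophages, had 776 FPKM (labelled FSP1+) against 217 FPKM (labelled αSMA+), a log2 ratio of 1.83. Lyz2, the lysozyme of myeloid cells, had 1063 FPKM in the library labelled FSP1+ and 469 FPKM in that labelled αSMA+ (log2 ratio 1.18). The members of the list did not move as 1 group, since Cd163 and Timd4, which mark resident macrophages, had log2 ratios of −0.59 and −1.45.

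Markers of neutrophils numbered 9 measured of 12, with 4 at least 2-fold higher and 1 lower (median 0.10, centred 0.29). Of the 9, 5 had a positive ratio and 4 a negative ratio, among these Cxcr2 at −1.21. Their summed level was 176 FPKM in the library labelled FSP1+ and 42 FPKM in that labelled αSMA+. S100a8, which pairs with S100a9 in a calcium-binding protein of neutrophils, had 96.2 FPKM (labelled FSP1+) against 9.18 FPKM (labelled αSMA+), a log2 ratio of 3.26. Lymphocyte markers were low in both, at 19.3 FPKM in the library labelled FSP1+ and 34.4 FPKM in that labelled αSMA+ over 11 of 16 genes, with 0 at least 2-fold higher and 3 lower (median −0.74, centred −0.78). Genes of dendritic cells and of MHC class II, 9 measured of 13, had 0 at least 2-fold higher and 0 lower (median −0.43, centred −0.38) and summed to 1041 FPKM in the library labelled FSP1+ and 1486 FPKM in that labelled αSMA+. Cardiomyocyte markers summed to 131 FPKM in the library labelled FSP1+ and 250.3 FPKM in that labelled αSMA+ over 13 of 22 genes, 5 of them at least 2-fold lower. The 4 measured hemoglobin genes of red cells (8 genes listed) were all at least 2-fold higher, as with Hbb-bs at 49.9 FPKM in the library labelled FSP1+ and 4.71 FPKM in that labelled αSMA+ (log2 ratio 3.16), though the near-identical copies Hba-a1 and Hba-a2, and Hbb-bs and Hbb-bt, may share reads. In bulk RNA, fewer cells of a type and less RNA per cell cannot be told apart, and the part of these cell types in the results that follow was not tested.

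Mural cell genes were higher too. Of 19 contractile genes of smooth muscle, 13 were measured, 10 at least 2-fold higher and 0 lower (median 1.42, centred 1.17). Myh11, the myosin heavy chain of smooth muscle, had 171 FPKM in the library labelled FSP1+ and 30.9 FPKM in that labelled αSMA+ (log2 ratio 2.43). Myl9, a regulatory light chain, had 604 FPKM (labelled FSP1+) against 88.6 FPKM (labelled αSMA+), a log2 ratio of 2.75. Their coactivator Myocd was low in both libraries, with 2.96 FPKM in the library labelled FSP1+ and 2.48 FPKM in that labelled αSMA+ (log2 ratio 0.19). The sum over the list was 1861 FPKM in the library labelled FSP1+ and 503 FPKM in that labelled αSMA+. Of 10 measured pericyte markers (14 listed), 6 were at least 2-fold higher and 0 lower. Mcam (CD146), also found on endothelium, had 76.2 FPKM (labelled FSP1+) against 7.58 FPKM (labelled αSMA+), a log2 ratio of 3.17, whereas Pdgfrb, the receptor through which pericytes are recruited, had 47.8 FPKM in the library labelled FSP1+ and 37.3 FPKM in that labelled αSMA+ (log2 ratio 0.35), less than 2-fold apart.

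The 30 highest and 30 lowest ratios were read among 4699 protein-coding genes with at least 1 FPKM in both libraries and 10 in either and with no small RNA gene inside. The smallest log2 ratio among the 30 highest was 2.99, and all stayed at 2.20 or above after centring. Of the 30 highest genes, 4 encode acute-phase proteins (Hp, Saa3, Lrg1 and Lcn2), 3 are endothelial markers (Ecscr, Icam2 and Fabp4) and 2 belong to the activated fibroblast list (Cthrc1 and Spp1). The highest ratio was that of Slc7a6 (chromosome 8, 106168875 to 106198704, plus strand), a transporter of cationic and neutral amino acids, which had 1143 FPKM in the library labelled FSP1+ and 24.3 FPKM in that labelled αSMA+ (log2 ratio 5.50). Apln, the peptide ligand of the apelin receptor, had 26.8 FPKM (labelled FSP1+) against 1.22 FPKM (labelled αSMA+), a log2 ratio of 3.65. Tacc3, a protein of the mitotic spindle, had 31.2 FPKM in the library labelled FSP1+ and 1.43 FPKM in that labelled αSMA+ (log2 ratio 3.73).

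The 30 lowest genes were more abundant, since 26 of them had 100 FPKM or more in their higher library, the one labelled αSMA+, against 14 of the 30 highest in theirs, labelled FSP1+. Of them, 27 belonged to a list, against 18 of the 30 highest, but the lists were chosen with earlier results of these data known. CXC chemokines and Csf1 gave 5 (Cxcl1, Cxcl2, Cxcl3, Cxcl5 and Csf1), the IL-6 family 3 (Lif, Il6 and Il11) and hyaluronan genes 3 (Has1, Ugdh and Tnfaip6). Ccl2 and Ccl7, Hmox1 and Srxn1, and Slc7a5 and Mthfd2 were pairs from the CCL, NRF2 and amino acid lists. Vcam1, the adhesion molecule that binds leukocyte integrins, was in no list and had 80.2 FPKM in the library labelled FSP1+ and 1108 FPKM in that labelled αSMA+ (log2 ratio −3.77). All 30 had centred ratios of 2.75 or more below zero.

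**Figure D3:**
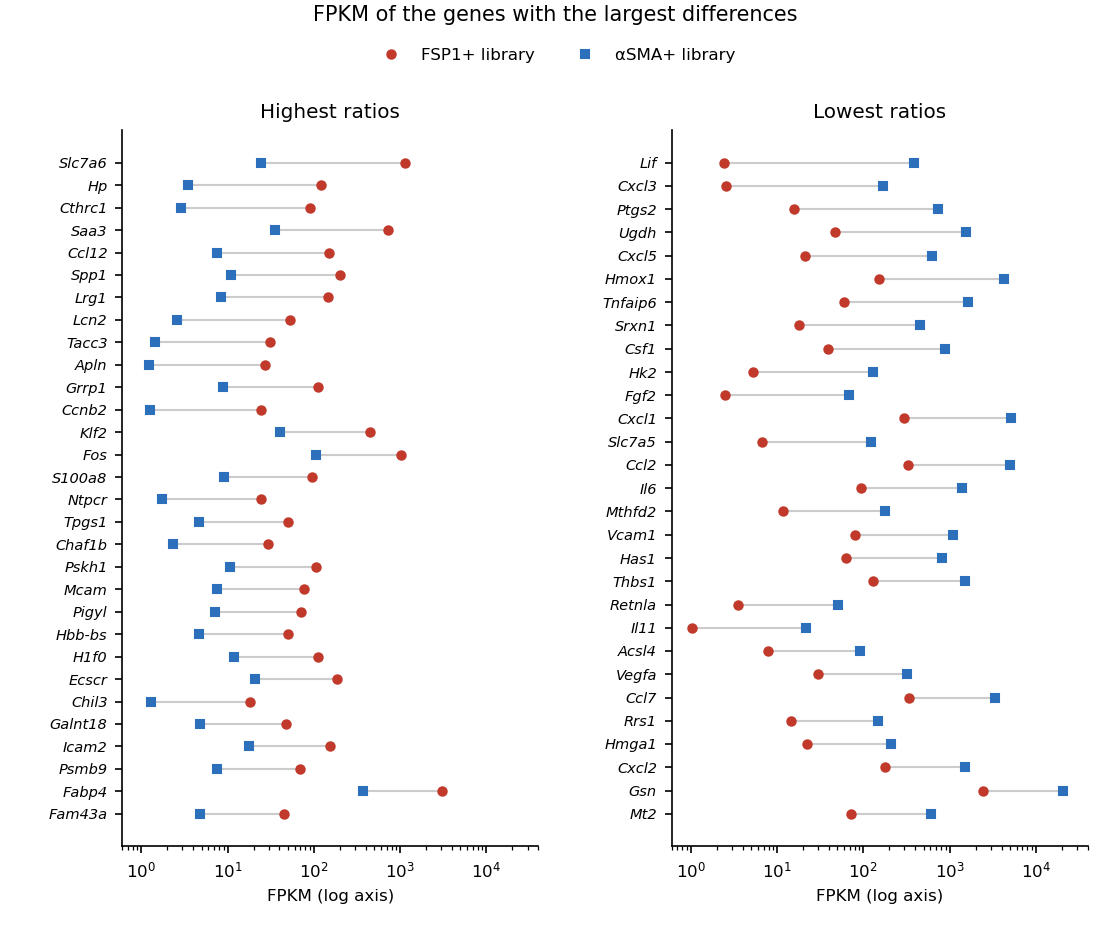
FPKM (log axis) of the genes with the 30 highest (left) and 30 lowest (right, 1 of them not shown) log2 ratios, in the library labelled FSP1+ (red circles) and that labelled αSMA+ (blue squares), joined by a grey line for each gene. Among the genes shown, Fabp4 reaches furthest right in the left panel, with 3083 FPKM in the library labelled FSP1+, and Gsn in the right panel, with 20694 FPKM in that labelled αSMA+.

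A few genes took a large part of the RNA of the library labelled αSMA+. Shares and ranks here were taken over the measured protein-coding genes with no small RNA gene inside, whose sum is called protein-coding FPKM. The 10 most abundant of these genes made up 9.61% of it in the library labelled FSP1+ and 17.0% in that labelled αSMA+. Gsn (chromosome 2, 35256359 to 35307902, plus strand) encodes gelsolin, which severs and caps actin filaments and is a common transcript of resident fibroblasts. It had 2426 FPKM in the library labelled FSP1+ and 20694 FPKM in that labelled αSMA+ (log2 ratio −3.09) and made up 0.790% and 6.55% of protein-coding FPKM in the libraries labelled FSP1+ and αSMA+. The shares of Hmox1 were 0.0499% in the library labelled FSP1+ and 1.37% in that labelled αSMA+. Tmsb4x, the actin-binding thymosin β4, led these genes in the library labelled FSP1+ with 1.29% against 0.481% in that labelled αSMA+. Of the 20 most abundant of these genes in each library 9 were shared, among them Apoe, Junb and Fth1.

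Fibroblast genes split by state. Of 23 genes of resident fibroblasts, 17 were measured, and 1 was at least 2-fold higher and 10 lower (median −1.22, centred −1.33). Dcn, the collagen-binding proteoglycan decorin, had 851 FPKM in the library labelled FSP1+ and 3145 FPKM in that labelled αSMA+ (log2 ratio −1.88). Pi16, a marker of adventitial fibroblasts, had 131 FPKM (labelled FSP1+) against 425 FPKM (labelled αSMA+), a log2 ratio of −1.69. Pdgfra, the PDGF receptor of fibroblasts, had 16.5 FPKM in the library labelled FSP1+ and 323 FPKM in that labelled αSMA+ (log2 ratio −4.21), but its entry also holds a small RNA gene that can set the value. The exception was Ly6a (Sca-1), also present on endothelium, with 588 FPKM (labelled FSP1+) against 216 FPKM (labelled αSMA+), a log2 ratio of 1.44. Vim, the intermediate filament of all mesenchymal cells, had 1736 FPKM in the library labelled FSP1+ and 1031 FPKM in that labelled αSMA+ (log2 ratio 0.75).

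Of 23 genes of activated fibroblasts and matricellular proteins, 15 were measured, 10 at least 2-fold higher and 0 lower (median 1.29, centred 0.96, with 7 higher after centring). Cthrc1, a secreted protein of scar-forming fibroblasts, had 90.0 FPKM in the library labelled FSP1+ and 2.91 FPKM in that labelled αSMA+ (log2 ratio 4.54). Spp1 (osteopontin), made by fibroblasts and macrophages, had 199 FPKM (labelled FSP1+) against 11 FPKM (labelled αSMA+), a log2 ratio of 4.06. Postn (periostin), the matricellular protein of myofibroblasts, had 282 FPKM in the library labelled FSP1+ and 84.8 FPKM in that labelled αSMA+ (log2 ratio 1.72). Fap, the fibroblast activation protease, was low in both with 4.04 FPKM in the library labelled FSP1+ and 5.62 FPKM in that labelled αSMA+ (log2 ratio −0.39), and Cilp, a matrix protein first known from cartilage, was close in both with 135 FPKM (labelled FSP1+) against 142 FPKM (labelled αSMA+), a log2 ratio of −0.08. S100a4 and Acta2 are themselves members of this list.

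Collagen I and III went with this group. Col1a1 had 899.5 FPKM in the library labelled FSP1+ and 266 FPKM in that labelled αSMA+ (log2 ratio 1.75). Its partner chain Col1a2 had 560.1 FPKM (labelled FSP1+) against 189 FPKM (labelled αSMA+), a log2 ratio of 1.56. Col3a1, whose entry holds a small RNA gene, had 1023 FPKM in the library labelled FSP1+ and 328 FPKM in that labelled αSMA+ (log2 ratio 1.64). The other measured fibrillar chains above 10 FPKM, Col5a1 and Col5a3, had log2 ratios of 0.77 and −0.20. Of 8 measured fibrillar collagens (11 listed), 4 were at least 2-fold higher and 0 lower, and 2 were higher after centring (median 0.98, centred 0.51).

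Basement membrane genes had 4 members at least 2-fold higher and 4 lower of 14 measured (19 listed, median −0.36, centred −0.79), but 1 higher and 7 lower after centring. Of the collagen IV chains, Col4a2 had 316 FPKM in the library labelled FSP1+ and 97.1 FPKM in that labelled αSMA+ (log2 ratio 1.69), and Col4a1 was less than 2-fold apart at 0.49. The X-linked chains Col4a5 and Col4a6 were lower, with log2 ratios of −1.27 and −1.25. Agrn, the proteoglycan agrin, had 32.6 FPKM (labelled FSP1+) against 7.69 FPKM (labelled αSMA+), a log2 ratio of 1.95. Among laminin chains, Lama2, found around muscle fibers, had 12.6 FPKM in the library labelled FSP1+ and 44.4 FPKM in that labelled αSMA+ (log2 ratio −1.74), and Lamc1 had 63.1 FPKM (labelled FSP1+) against 141 FPKM (labelled αSMA+), a log2 ratio of −1.15, while Lama4, Lamb1 and Lamb2 were less than 2-fold apart, with log2 ratios of −0.14, −0.74 and −0.30.

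Small leucine-rich proteoglycans, which bind collagen fibrils and set their width, had 0 at least 2-fold higher and 5 lower of 7 measured (15 listed, median −1.11, centred −1.33). Fmod (fibromodulin) was the only measured member with a positive ratio, 0.37, which was −0.03 after centring. The thrombospondins past 2-fold lay on both sides. Thbs1, which can activate latent TGF-β, had 128 FPKM in the library labelled FSP1+ and 1515 FPKM in that labelled αSMA+ (log2 ratio −3.55). Thbs2 had 25.6 FPKM (labelled FSP1+) against 148 FPKM (labelled αSMA+), a log2 ratio of −2.49. On the other side Comp, a thrombospondin of cartilage and tendon, had 139.7 FPKM in the library labelled FSP1+ and 62.4 FPKM in that labelled αSMA+ (log2 ratio 1.15), and Thbs4 had 23.4 FPKM (labelled FSP1+) against 8.09 FPKM (labelled αSMA+), a log2 ratio of 1.42. Thbs1 and Thbs2 encode trimers, Comp and Thbs4 pentamers, and Thbs3, which also encodes a pentamer, had a log2 ratio of −0.35. The list of thrombospondins and CCN proteins had 4 at least 2-fold higher and 3 lower of 9 measured (11 listed), and 2 higher and 3 lower after centring.

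Matrix metalloproteinases had 4 (30.8%) higher and 5 (38.5%) lower of 13 measured (18 listed), against 19.2% and 14.3% of all measured genes. Their median of 0.09 changed sign after centring (−0.37) and through the uninjured library (−0.16). After centring 1 was higher and 3 were lower. The gelatinase Mmp2 had 236 FPKM in the library labelled FSP1+ and 528 FPKM in that labelled αSMA+ (log2 ratio −1.16). The collagenase Mmp13 had 2.08 FPKM (labelled FSP1+) against 22.4 FPKM (labelled αSMA+), a log2 ratio of −2.92. The membrane-bound Mmp14, which activates Mmp2, was level, with 116 FPKM in the library labelled FSP1+ and 113 FPKM in that labelled αSMA+ (log2 ratio 0.03). The genes higher in the library labelled FSP1+ were low ones, such as Mmp15 with 7.75 FPKM (labelled FSP1+) against 0.907 FPKM (labelled αSMA+), a log2 ratio of 2.20.

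Hyaluronan is a long sugar polymer of loose matrix, built at the cell surface from sugar nucleotides made with Ugdh and Uap1. Ugdh had 47.6 FPKM in the library labelled FSP1+ and 1532 FPKM in that labelled αSMA+ (log2 ratio −4.98). Uap1 had 46.8 FPKM (labelled FSP1+) against 356 FPKM (labelled αSMA+), a log2 ratio of −2.90. Has1, a hyaluronan synthase, had 62.8 FPKM in the library labelled FSP1+ and 827 FPKM in that labelled αSMA+ (log2 ratio −3.70). Tnfaip6 (TSG-6), which links proteins to hyaluronan, had 59.4 FPKM (labelled FSP1+) against 1642 FPKM (labelled αSMA+), a log2 ratio of −4.77. Ugdh, Uap1, Has1 and Tnfaip6 were thus all lower, while Gfpt1, also on the list, was less than 2-fold apart at −0.73. Hyal2, which cleaves hyaluronan, was the only gene at least 2-fold higher, with 29.3 FPKM in the library labelled FSP1+ and 7.30 FPKM in that labelled αSMA+ (log2 ratio 1.87). In all, 6 of 11 measured genes (23 listed) were at least 2-fold lower (median −1.06, centred −0.73), and the list summed to 321 FPKM in the library labelled FSP1+ and 4492 FPKM in that labelled αSMA+.

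Most CXC chemokines and colony-stimulating factors that differed by 2-fold were lower. Of 23 genes 17 were measured, 3 at least 2-fold higher and 9 lower (median −1.21, centred −1.03), and they summed to 971 FPKM in the library labelled FSP1+ and 9332 FPKM in that labelled αSMA+. The neutrophil attractants lie close together on chromosome 5. Cxcl1 (chromosome 5, 90891245 to 90893115, plus strand) had 300.2 FPKM in the library labelled FSP1+ and 5201 FPKM in that labelled αSMA+ (log2 ratio −4.11). Cxcl2 (chromosome 5, 90903899 to 90905938, plus strand) had 177 FPKM (labelled FSP1+) against 1521 FPKM (labelled αSMA+), a log2 ratio of −3.10. Cxcl5 (chromosome 5, 90759298 to 90761625, plus strand) had 21 FPKM in the library labelled FSP1+ and 634 FPKM in that labelled αSMA+ (log2 ratio −4.85), and Cxcl3 (chromosome 5, 90786101 to 90788093, plus strand) had 2.57 FPKM (labelled FSP1+) against 168 FPKM (labelled αSMA+), a log2 ratio of −5.57. All 4 were lower, with the reserve that reads of such close paralogs may be shared.

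The growth factors of myeloid cells followed. Csf2 (GM-CSF) had 0.578 FPKM in the library labelled FSP1+ and 507 FPKM in that labelled αSMA+ (log2 ratio −8.33), under the minimum of 1 FPKM in the library labelled FSP1+. Csf1 (M-CSF) had 39 FPKM (labelled FSP1+) against 888 FPKM (labelled αSMA+), a log2 ratio of −4.47. Csf2ra, which encodes the receptor of Csf2 on myeloid cells, was higher, with 58.4 FPKM in the library labelled FSP1+ and 22.2 FPKM in that labelled αSMA+ (log2 ratio 1.35). Cxcl12, the stromal attractant of CXCR4+ cells, went the other way, with 249 FPKM (labelled FSP1+) against 80.5 FPKM (labelled αSMA+), a log2 ratio of 1.62, while Ackr3, its scavenger receptor, had 51.7 FPKM in the library labelled FSP1+ and 223 FPKM in that labelled αSMA+ (log2 ratio −2.09).

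The 250 bases before the start of Cxcl3 are shown because 5 of the 14 genes of this list with a promoter in the RefSeq table (Csf1, Csf3r, Cxcl1, Cxcl2 and Cxcl3) held the NF-κB consensus on either strand in this window, 35.7% against 8.36% of 8820 promoters of measured genes. The sequence is from RefSeq on GRCm38.p6 (chr5:90785851-90786100, plus strand), written 5′ to 3′ toward the start, and the capitals mark the consensus, in 2 overlapping matches, 1 on each strand, the nearest 62 bases from the start. Csf3r held the letters without a difference of 2-fold, with a log2 ratio of −0.05. A match describes letters only, and binding was not measured.
Cxcl3: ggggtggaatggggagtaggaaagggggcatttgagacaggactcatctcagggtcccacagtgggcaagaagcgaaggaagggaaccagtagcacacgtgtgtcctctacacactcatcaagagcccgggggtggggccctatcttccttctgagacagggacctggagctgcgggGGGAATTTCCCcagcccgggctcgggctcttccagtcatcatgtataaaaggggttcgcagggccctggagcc

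CCL chemokines had members in both directions. Ccl2, the main attractant of monocytes, had 330.3 FPKM in the library labelled FSP1+ and 4997 FPKM in that labelled αSMA+ (log2 ratio −3.92). Ccl7 had 339 FPKM (labelled FSP1+) against 3358 FPKM (labelled αSMA+), a log2 ratio of −3.31, and the eosinophil attractant Ccl11 had 5.03 FPKM in the library labelled FSP1+ and 34 FPKM in that labelled αSMA+ (log2 ratio −2.54). Ccl12, which like Ccl2 acts on CCR2, had 152 FPKM (labelled FSP1+) against 7.53 FPKM (labelled αSMA+), a log2 ratio of 4.16, and its neighbour Ccl8 had 83.4 FPKM in the library labelled FSP1+ and 48 FPKM in that labelled αSMA+ (log2 ratio 0.79). These 5 genes lie in 1 cluster on the plus strand of chromosome 11, in the order Ccl2 (start 82035577), Ccl7 (82045712), Ccl11 (82057832), Ccl12 (82101845) and Ccl8 (82115185), with the lower genes at the low end. Reads of paralogs as alike as Ccl2, Ccl7 and Ccl12 may be shared, which makes single values uncertain. Of 19 measured members (23 listed), 4 (21.1%) were higher by 2-fold or more and 6 (31.6%) lower. The shares over all measured genes were 19.2% and 14.3%, so the higher share was close to that of all. The list had a median of −0.57 (centred −0.21, with 6 higher and 7 lower after centring). Ccl3 and Ccl4, made by macrophages, had log2 ratios of −0.59 and −0.01.

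Cytokines of the IL-6 family signal through Il6st (gp130) and Stat3. Lif, the ligand with the lowest ratio of the 30, had 2.46 FPKM in the library labelled FSP1+ and 388 FPKM in that labelled αSMA+ (log2 ratio −6.81). Il6 had 93.9 FPKM (labelled FSP1+) against 1376 FPKM (labelled αSMA+), a log2 ratio of −3.86, and Il11, a cytokine made by stromal cells, had 1.04 FPKM in the library labelled FSP1+ and 22 FPKM in that labelled αSMA+ (log2 ratio −3.49). These ligands were lower. The shared receptor Il6st had 45.6 FPKM (labelled FSP1+) against 127 FPKM (labelled αSMA+), a log2 ratio of −1.46. Stat3 had 81.2 FPKM in the library labelled FSP1+ and 239 FPKM in that labelled αSMA+ (log2 ratio −1.55), and Osmr, the receptor of oncostatin M, had a log2 ratio of −1.78. The receptor chains Lifr and Il6ra were less than 2-fold apart, at 0.64 and −0.35. The ligand Osm, made by myeloid cells, had 14.3 FPKM in the library labelled FSP1+ and 5.41 FPKM in that labelled αSMA+ (log2 ratio 1.26). Socs3, the inhibitor that Stat3 induces, had 622 FPKM (labelled FSP1+) against 198 FPKM (labelled αSMA+), a log2 ratio of 1.64, and both were thus higher. The list had 2 genes at least 2-fold higher and 7 lower of 13 measured (15 listed, median −1.46, centred −1.28, with 1 higher and 7 lower after centring).

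Several receptors of the IL-1 and TNF families were lower. Il1r1 had 16 FPKM in the library labelled FSP1+ and 101 FPKM in that labelled αSMA+ (log2 ratio −2.58), Tnfrsf1b had 21.9 FPKM (labelled FSP1+) against 78.5 FPKM (labelled αSMA+), a log2 ratio of −1.80, and the alarmin Il33 had 23.5 FPKM in the library labelled FSP1+ and 92.8 FPKM in that labelled αSMA+ (log2 ratio −1.94). Tnf itself was less than 2-fold apart, with 17.4 FPKM (labelled FSP1+) against 11.6 FPKM (labelled αSMA+), a log2 ratio of 0.55. Of 10 measured genes (19 listed), 1 was at least 2-fold higher and 5 lower.

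Acute-phase proteins stood out on the other side. Saa3, serum amyloid of stromal and myeloid cells, had 715 FPKM in the library labelled FSP1+ and 35.1 FPKM in that labelled αSMA+ (log2 ratio 4.31). Hp (haptoglobin), which binds free hemoglobin, had 123 FPKM (labelled FSP1+) against 3.47 FPKM (labelled αSMA+), a log2 ratio of 4.79. Lcn2 (lipocalin 2), which withholds iron from bacteria, had 52.6 FPKM in the library labelled FSP1+ and 2.57 FPKM in that labelled αSMA+ (log2 ratio 3.91), and Lrg1, a glycoprotein that acts on endothelium, had 146 FPKM (labelled FSP1+) against 8.46 FPKM (labelled αSMA+), a log2 ratio of 3.96. Of 19 listed genes only 9 were measured, 5 at least 2-fold higher and 1 lower. The list summed to 1089.6 FPKM in the library labelled FSP1+ and 114 FPKM in that labelled αSMA+.

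Interferon-stimulated genes were higher as a group. Of 29 listed genes, 26 were measured, 16 at least 2-fold higher and 1 lower (median 1.23, centred 1.12). Irf7, which amplifies the response, had 105.9 FPKM (labelled FSP1+) against 17.5 FPKM (labelled αSMA+), a log2 ratio of 2.53. Oas1a, a sensor of double-stranded RNA, had 14.3 FPKM in the library labelled FSP1+ and 2.22 FPKM in that labelled αSMA+ (log2 ratio 2.25), and Bst2 (tetherin) had 375 FPKM (labelled FSP1+) against 83.3 FPKM (labelled αSMA+), a log2 ratio of 2.16. The only gene at least 2-fold lower was Oasl1, with 13.2 FPKM in the library labelled FSP1+ and 35.8 FPKM in that labelled αSMA+ (log2 ratio −1.37). The immunoproteasome and the peptide transporter of class I presentation went with them, as Psmb9 had 70.1 FPKM (labelled FSP1+) against 7.64 FPKM (labelled αSMA+), a log2 ratio of 3.04 and Tap1 had 53.8 FPKM in the library labelled FSP1+ and 16.2 FPKM in that labelled αSMA+ (log2 ratio 1.67). Of 9 measured genes of that list (13 listed) 6 were at least 2-fold higher, but 3 after centring (median 1.22, centred 0.45).

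The promoter of Oas1a is shown since 8 of 20 interferon-stimulated genes with a promoter (40%) held the interferon response element GAAANNGAA in the 250 bases before the start, on either strand, against 6.84% of 8820 promoters. The holders were Bst2, Ifih1, Ifit3, Isg15, Oas1a, Oas3, Rsad2 and Stat2, and of these Ifih1, Oas3 and Rsad2 were less than 2-fold apart. The sequence is from RefSeq on GRCm38.p6 (chr5:120907526-120907775, minus strand), and the capitals mark 2 overlapping matches that end 5 bases from the start.
Oas1a: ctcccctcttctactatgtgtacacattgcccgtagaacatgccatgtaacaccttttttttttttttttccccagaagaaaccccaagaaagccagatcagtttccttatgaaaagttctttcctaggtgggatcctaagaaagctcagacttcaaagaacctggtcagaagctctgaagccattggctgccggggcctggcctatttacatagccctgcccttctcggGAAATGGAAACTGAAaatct

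TGF-β signaling drives the myofibroblast state. The ligand Tgfb1 was level, with 41.3 FPKM in the library labelled FSP1+ and 44.2 FPKM in that labelled αSMA+ (log2 ratio −0.09), and Tgfb2 was lower, with 4.45 FPKM (labelled FSP1+) against 18.5 FPKM (labelled αSMA+), a log2 ratio of −1.84. The receptor Tgfbr1 had 9.97 FPKM in the library labelled FSP1+ and 25.3 FPKM in that labelled αSMA+ (log2 ratio −1.26) and the transducer Smad3 4.74 FPKM (labelled FSP1+) against 20.7 FPKM (labelled αSMA+), a log2 ratio of −1.92. Skil, a feedback inhibitor of the pathway, had 16 FPKM (labelled FSP1+) against 73.9 FPKM (labelled αSMA+), a log2 ratio of −2.14. Acvrl1, the receptor that endothelial cells use, was higher, with 44.1 FPKM in the library labelled FSP1+ and 20.3 FPKM in that labelled αSMA+ (log2 ratio 1.08). The list had 3 genes at least 2-fold higher and 11 lower of 19 measured (30 listed, median −1.07, centred −1.14, with 0 higher and 10 lower after centring).

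Secreted growth factors and their receptors are given family by family. Vegfa had 30.3 FPKM in the library labelled FSP1+ and 318 FPKM in that labelled αSMA+ (log2 ratio −3.35), whereas its receptors Kdr and Flt1, which are endothelial markers, had log2 ratios of 2.38 and 1.21, and the related ligand Vegfb had 23.9 FPKM (labelled FSP1+) against 6.28 FPKM (labelled αSMA+), a log2 ratio of 1.78. Fgf2 had 2.52 FPKM in the library labelled FSP1+ and 68.3 FPKM in that labelled αSMA+ (log2 ratio −4.30), while the FGF receptors Fgfr2 and Fgfr3 were less than 2-fold apart at −0.01 and 0.94. Ntf3, a neurotrophin, had 14.4 FPKM in the library labelled FSP1+ and 3.02 FPKM in that labelled αSMA+ (log2 ratio 1.94). The VEGF list had 5 at least 2-fold higher and 1 lower of 12 measured (17 listed, 4 higher and 3 lower after centring). The FGF list had 1 at least 2-fold higher and 7 lower of 18 measured (23 listed). The neurotrophin list had 2 at least 2-fold higher and 2 lower of 9 measured (12 listed). These are 22.2% in each direction, against 19.2% and 14.3% of all measured genes. In the Notch pathway, which acts in vessels, 5 of 7 measured genes (13 listed) were at least 2-fold higher and 0 lower, among them the target Hes1 with 127 FPKM (labelled FSP1+) against 46.1 FPKM (labelled αSMA+), a log2 ratio of 1.45, while the ligand Jag1 had 27.2 FPKM in the library labelled FSP1+ and 47.9 FPKM in that labelled αSMA+ (log2 ratio −0.79).

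As many prostaglandin genes were higher as the share over all measured genes would give, and somewhat more were lower. Of 16 measured genes (22 listed), 3 (18.8%) were higher by 2-fold or more and 4 (25%) lower, against 19.2% and 14.3% of all measured genes (median −0.50, centred −0.02, with 2 higher and 6 lower after centring). Ptgs2 (COX-2), the inducible enzyme, had 15.8 FPKM in the library labelled FSP1+ and 743 FPKM in that labelled αSMA+ (log2 ratio −5.47), whereas Ptgs1 (COX-1) had 18.1 FPKM (labelled FSP1+) against 7.79 FPKM (labelled αSMA+), a log2 ratio of 1.12. Ptgis, which makes prostacyclin, had 85.8 FPKM in the library labelled FSP1+ and 182 FPKM in that labelled αSMA+ (log2 ratio −1.07), and its receptor Ptgir had 7.08 FPKM (labelled FSP1+) against 36.8 FPKM (labelled αSMA+), a log2 ratio of −2.22, while the thromboxane receptor Tbxa2r had 18.6 FPKM in the library labelled FSP1+ and 1.63 FPKM in that labelled αSMA+ (log2 ratio 2.90).

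The AP-1 factors Fos and Jun, products of immediate-early genes, were higher. Fos had 1017 FPKM in the library labelled FSP1+ and 105.5 FPKM in that labelled αSMA+ (log2 ratio 3.26) and Jun had 899 FPKM (labelled FSP1+) against 128 FPKM (labelled αSMA+), a log2 ratio of 2.80. Maff and Mafk, partners of NRF2, were lower, with 19 FPKM in the library labelled FSP1+ and 97.3 FPKM in that labelled αSMA+ (log2 ratio −2.29) for Maff and a log2 ratio of −1.10 for Mafk. Klf2, an endothelial factor induced by flow, had 444 FPKM (labelled FSP1+) against 40.6 FPKM (labelled αSMA+), a log2 ratio of 3.42. Myc, a driver of growth and ribosome production, had 72.9 FPKM in the library labelled FSP1+ and 462 FPKM in that labelled αSMA+ (log2 ratio −2.65), and its relative Mycn had 18.5 FPKM in the library labelled FSP1+ and 2.43 FPKM in that labelled αSMA+. Egr1 and Nr4a1 were less than 2-fold apart, with log2 ratios of −0.39 and 0.43. The list of Egr, Nr4a, Klf and Myc genes had 4 at least 2-fold higher and 3 lower of 21 measured (23 listed), shares close to the 19.2% and 14.3% of all measured genes. After centring 4 were higher and 5 lower. The list had a median of 0.06 that changed sign after centring (−0.33) and through the uninjured library (−0.18). The AP-1 list had 5 genes at least 2-fold higher and 2 lower of 10 measured (12 listed). Its median was 0.99 (centred 0.38, with 4 higher and 2 lower after centring).

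Genes that supply amino acids and answer to the stress factor ATF4 were lower, with the exception already given. Of 21 measured genes (23 listed), 17 were at least 2-fold lower and 1, Slc7a6, higher (median −1.99, centred −2.38). Slc7a5, the transporter of leucine, had 6.71 FPKM in the library labelled FSP1+ and 124 FPKM in that labelled αSMA+ (log2 ratio −4.02), and its partner chain Slc3a2 had 97 FPKM (labelled FSP1+) against 535 FPKM (labelled αSMA+), a log2 ratio of −2.45. The serine pathway enzymes Phgdh, Psat1 and Psph were lower, with log2 ratios of −2.98, −3.05 and −2.31, and Mthfd2, the mitochondrial folate enzyme downstream of serine, had 11.7 FPKM in the library labelled FSP1+ and 177 FPKM in that labelled αSMA+ (log2 ratio −3.81). Asns, which makes asparagine, had 12.2 FPKM (labelled FSP1+) against 84 FPKM (labelled αSMA+), a log2 ratio of −2.68. Atf4 itself was less than 2-fold apart, with 101 FPKM in the library labelled FSP1+ and 188 FPKM in that labelled αSMA+ (log2 ratio −0.89).

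The enzymes that load amino acids onto tRNA followed, 8 of 14 measured (22 listed) being at least 2-fold lower and 0 higher (median −1.72, centred −1.54). Nars, for asparagine, had 39 FPKM in the library labelled FSP1+ and 252 FPKM in that labelled αSMA+ (log2 ratio −2.66), and Tars, for threonine, had 22.9 FPKM (labelled FSP1+) against 129 FPKM (labelled αSMA+), a log2 ratio of −2.44, while Qars, for glutamine, had 21.9 FPKM in the library labelled FSP1+ and 10.5 FPKM in that labelled αSMA+ (log2 ratio 0.99). The promoters of Slc7a11, the cystine transporter, and Tars are shown because the amino acid response element TGATGNAA, bound by ATF4, occurred on either strand in the 250 bases before the start of 3 of 17 amino acid genes (Asns, Pycr1 and Slc7a11, 17.6%) and of 3 of 10 tRNA synthetases (Aars, Gars and Tars, 30%), against 2.53% of 8820 promoters. Slc7a11 had 5.12 FPKM (labelled FSP1+) against 44.9 FPKM (labelled αSMA+), a log2 ratio of −2.91, and Pycr1, with a log2 ratio of −0.18, held the letters without a difference of 2-fold. The sequences are from RefSeq on GRCm38.p6 (Slc7a11 chr3:50443614-50443863, minus strand, and Tars chr15:11399659-11399908, minus strand), with the element in capitals, on the opposite strand where it reads TTGCATCA.
Slc7a11: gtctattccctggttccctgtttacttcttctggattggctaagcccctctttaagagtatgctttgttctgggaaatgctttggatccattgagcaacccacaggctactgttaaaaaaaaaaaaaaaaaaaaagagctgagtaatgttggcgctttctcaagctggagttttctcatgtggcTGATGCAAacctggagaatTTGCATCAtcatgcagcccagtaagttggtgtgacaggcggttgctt
Tars: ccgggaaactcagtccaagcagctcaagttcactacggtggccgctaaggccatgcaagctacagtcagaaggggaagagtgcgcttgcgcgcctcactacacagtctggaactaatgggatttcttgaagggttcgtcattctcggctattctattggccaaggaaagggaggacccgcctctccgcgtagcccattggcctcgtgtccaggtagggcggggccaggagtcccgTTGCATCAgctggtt

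Other stress programs were lower in part. In the unfolded protein response, 1 gene was at least 2-fold higher and 7 lower of 17 measured (23 listed, median −0.92, centred −1.01), and the chaperone Hspa5 (BiP) had 435 FPKM in the library labelled FSP1+ and 948 FPKM in that labelled αSMA+ (log2 ratio −1.12). Among targets of NRF2, the factor that answers to oxidants, Hmox1, which breaks down heme, had 153 FPKM (labelled FSP1+) against 4324 FPKM (labelled αSMA+), a log2 ratio of −4.81. Srxn1, which repairs oxidized peroxiredoxins, had 18.1 FPKM in the library labelled FSP1+ and 455 FPKM in that labelled αSMA+ (log2 ratio −4.58), and the glutathione enzymes Gclc and Gclm had log2 ratios of −2.91 and −2.63. Nqo1, another common target, was low in both, with 4.35 FPKM (labelled FSP1+) against 3.22 FPKM (labelled αSMA+), a log2 ratio of 0.34. The list had 1 gene higher and 10 lower of 18 measured (23 listed). The metal-binding Mt1 and Mt2 were lower, with 362 FPKM in the library labelled FSP1+ and 1632 FPKM in that labelled αSMA+ (log2 ratio −2.17) for Mt1 and 72.8 FPKM (labelled FSP1+) against 612 FPKM (labelled αSMA+), a log2 ratio of −3.05 for Mt2, the 2 measured of 4 metallothioneins. Heat shock genes had 2 higher and 2 lower of 16 measured (20 listed), 12.5% in each direction and below the 19.2% and 14.3% of all measured genes, with Hspa1b at 1664 FPKM in the library labelled FSP1+ and 601 FPKM in that labelled αSMA+ (log2 ratio 1.47) and the mitochondrial chaperonin Hspd1 at 90.0 FPKM (labelled FSP1+) against 304 FPKM (labelled αSMA+), a log2 ratio of −1.75.

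Ribosome assembly and the ribosome itself differed. Of 38 measured genes of ribosome biogenesis (57 listed), 32 were at least 2-fold lower and 0 higher (median −1.61, centred −1.85). Rrs1, an assembly factor of the large subunit, had 14.7 FPKM in the library labelled FSP1+ and 149.6 FPKM in that labelled αSMA+ (log2 ratio −3.26). Fbl (fibrillarin), which methylates ribosomal RNA, had 45.6 FPKM (labelled FSP1+) against 167 FPKM (labelled αSMA+), a log2 ratio of −1.85, and Polr1b, a subunit of RNA polymerase I, had 3.30 FPKM in the library labelled FSP1+ and 20.9 FPKM in that labelled αSMA+ (log2 ratio −2.35). Of 49 measured proteins of the cytosolic ribosome (80 listed), 0 and 0 passed 2-fold in the 2 directions, and their median of 0.14 changed sign after centring (−0.16) and through the uninjured library (−0.11). They summed to 26488 FPKM in the library labelled FSP1+ and 22694 FPKM in that labelled αSMA+.

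Nuclear genes of the mitochondrion were higher by smaller amounts. Complex I, the first enzyme of the respiratory chain, had 29 measured subunits (35 listed), every one with a positive ratio and 18 at least 2-fold higher (median 1.10, centred 1.04). The largest ratio was that of Ndufa3, with 266 FPKM in the library labelled FSP1+ and 68.3 FPKM in that labelled αSMA+ (log2 ratio 1.95), and the smallest that of Ndufb6, with 114 FPKM (labelled FSP1+) against 76.1 FPKM (labelled αSMA+), a log2 ratio of 0.58. Complexes III and IV had a median of 0.87 (centred 0.61) and ATP synthase one of 0.90 (centred 0.75), with 6 of 17 (20 listed) and 4 of 10 (15 listed) at least 2-fold higher and none lower. Of the enzymes of sugar use, Hk2, which traps glucose, had 5.24 FPKM in the library labelled FSP1+ and 129 FPKM in that labelled αSMA+ (log2 ratio −4.38), whereas Pkm, the last enzyme of glycolysis, had 447 FPKM (labelled FSP1+) against 179 FPKM (labelled αSMA+), a log2 ratio of 1.32. The glycolysis list had 5 (33.3%) at least 2-fold higher and 3 (20%) lower of 15 measured, against 19.2% and 14.3% of all measured genes. It had 22 genes listed, with a median of 0.72 (centred 0.01, with 1 higher and 3 lower after centring).

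Cell cycle genes were higher, though at low levels. Of 30 measured genes of mitosis (41 listed), 27 were higher by 2-fold or more and 0 lower (median 1.82, centred 2.02), and they summed to 414 FPKM in the library labelled FSP1+ and 78.3 FPKM in that labelled αSMA+. Mki67, the proliferation marker Ki-67, had 11.1 FPKM in the library labelled FSP1+ and 0.953 FPKM in that labelled αSMA+ (log2 ratio 2.63). Cdk1, the kinase that starts mitosis, had 12.1 FPKM (labelled FSP1+) against 0.369 FPKM (labelled αSMA+), a log2 ratio of 3.26, and its partner Ccnb2 had 24.7 FPKM in the library labelled FSP1+ and 1.25 FPKM in that labelled αSMA+ (log2 ratio 3.51). Of 27 replication genes (41 listed) 17 were higher by 2-fold or more and 0 lower (median 1.30, centred 1.33). Mcm2, a subunit of the replicative helicase, had 16.8 FPKM (labelled FSP1+) against 1.64 FPKM (labelled αSMA+), a log2 ratio of 2.75, while Pcna, the sliding clamp, had 60.6 FPKM in the library labelled FSP1+ and 42.5 FPKM in that labelled αSMA+ (log2 ratio 0.50). Which cells of the sort carried these transcripts was not measured.

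The promoter of Ccnb2 is shown because 2 elements of cell cycle promoters were common among mitosis genes. The CCAAT box occurred on either strand in the 250 bases before the start of 23 of 28 mitosis genes (82.1%), against 36.5% of 8820 promoters, and the CHR element TTTGAA in 10 of 28 (35.7%), against 12.3%. Pairs of list and element without a promoter shown had 1 to 3 holders each, too few to read their shares as a trait of the list. The E-box CACGTG was in 3 of 32 ribosome biogenesis genes (9.38%, against 8.06%). The E2F element was in 2 of 22 replication genes (1.58% of all promoters) and the antioxidant element in 3 of 14 NRF2 genes (11.7% of all). The NF-κB consensus was in 2 of 11 CCL and 2 of 10 IL-6 family genes (8.36% of all). The interferon element was in 1 of 8 class I genes (6.84% of all). The CArG box was in 1 of 9 contractile and 1 of 23 actin genes (1.19% of all). The replication, CCL, class I and actin holders were less than 2-fold apart. Of the NRF2 holders, Blvra was higher (log2 ratio 1.36), and Gclm and Nfe2l2 were lower. Ccnb2 held 1 CHR element and 3 CCAAT boxes, in capitals, the nearest of them 16 bases from the start. The sequence is from RefSeq on GRCm38.p6 (chr9:70421555-70421804, minus strand).
Ccnb2: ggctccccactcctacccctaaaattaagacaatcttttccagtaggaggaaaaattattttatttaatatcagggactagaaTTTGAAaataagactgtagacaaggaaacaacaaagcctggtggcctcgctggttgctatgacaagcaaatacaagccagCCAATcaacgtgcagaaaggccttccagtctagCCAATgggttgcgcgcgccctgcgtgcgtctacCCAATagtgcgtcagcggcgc

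**Figure D4:**
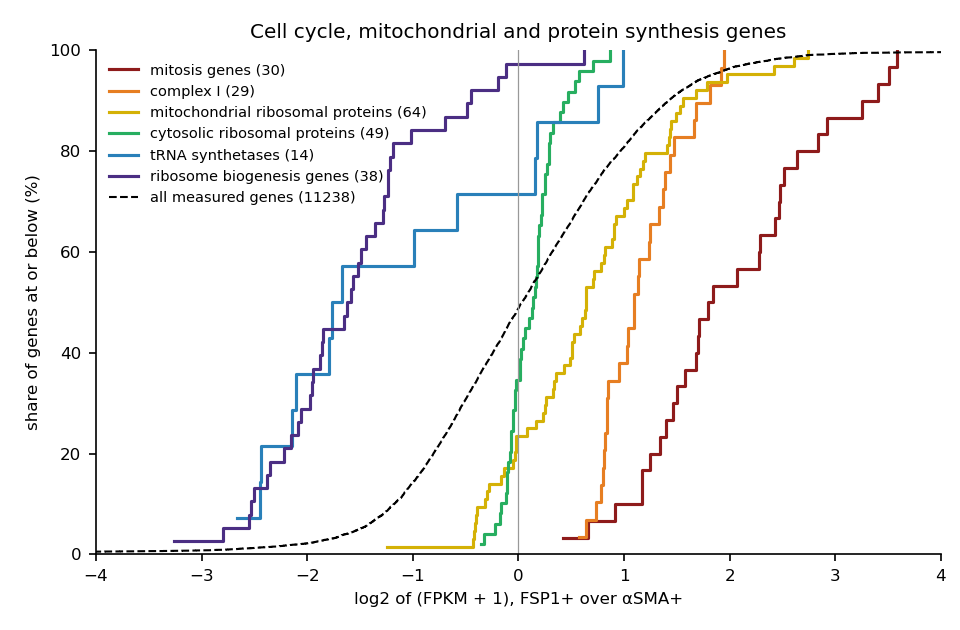
Share of genes (percent, vertical) at or below each log2 ratio, FSP1+ over αSMA+ (horizontal), for 6 gene lists and for all 11238 measured genes (dashed). The curves of ribosome biogenesis genes and tRNA synthetases lie left of the dashed curve (medians −1.61 and −1.72), cytosolic ribosomal proteins climb steeply near 0, and complex I and mitosis genes lie to the right (medians 1.10 and 1.82).

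Genes of the actin cytoskeleton were higher, fewer of them after centring. Of 25 measured genes (28 listed), 13 were higher by 2-fold or more and 0 lower (median 1.03), whereas 4 passed 2-fold after centring (median 0.43). Actb, cytoplasmic actin, had 1001 FPKM (labelled FSP1+) against 560.0 FPKM (labelled αSMA+), a log2 ratio of 0.84, and Vcl (vinculin), which ties actin to adhesions, had 34.6 FPKM in the library labelled FSP1+ and 32.6 FPKM in that labelled αSMA+ (log2 ratio 0.08).

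Across the gene lists, 81 of 82 held a measured member. The median was 1 or more in 14 lists, 10 of which stayed there after centring, and −1 or less in 12, of which 11 stayed. The higher lists with the largest medians were those of red cells, endothelium and mitosis, and the lower ones those of metallothioneins, amino acid supply and tRNA synthetases. Members of a list share regulators and cell types, so they are not independent of one another, and the medians stand beside one of 0.03 over all measured genes.

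**Figure D5:**
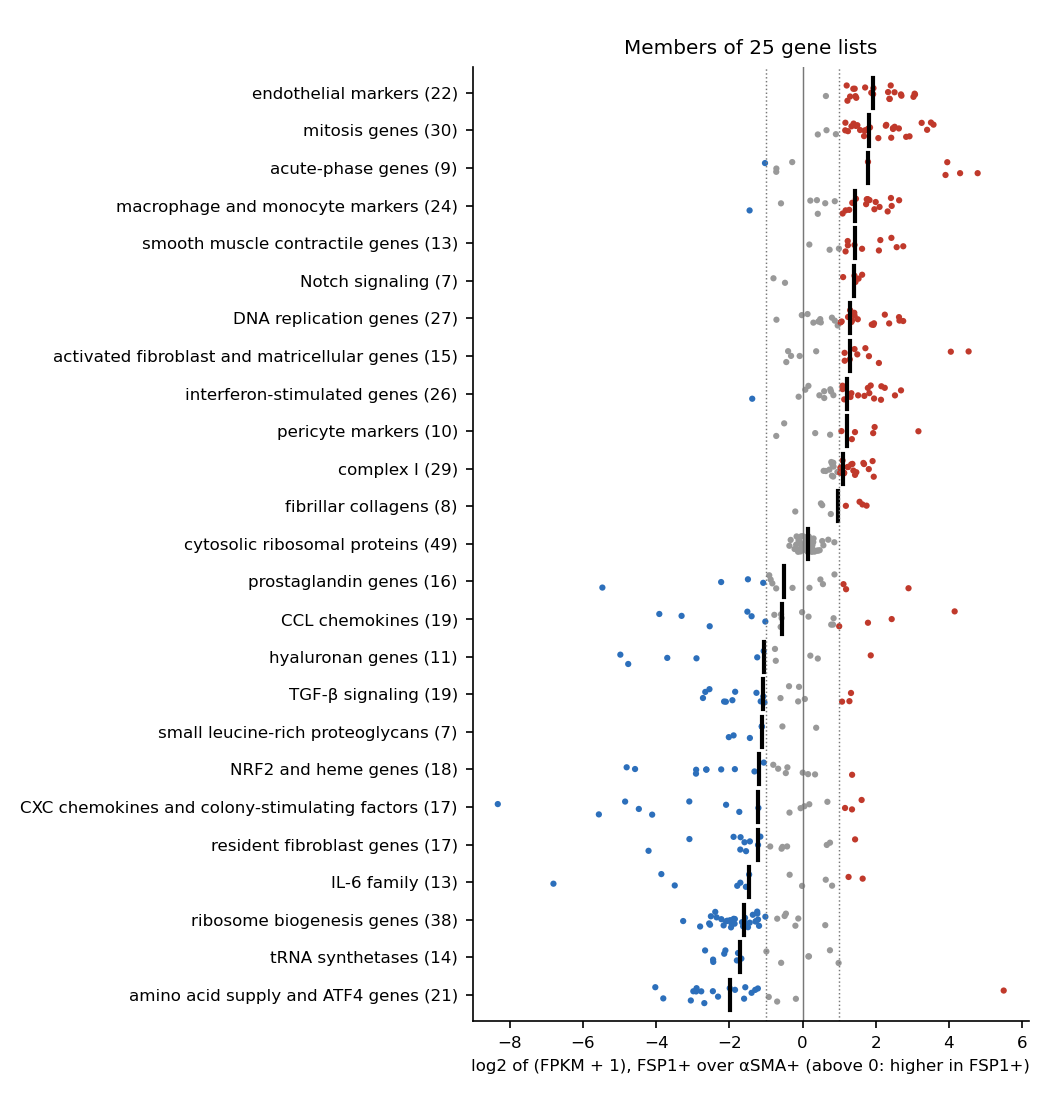
Log2 ratio of FPKM with 1 added, FSP1+ over αSMA+ (horizontal), of the measured members of 25 gene lists, 1 point a gene, with the median of the list as a black bar and the number measured in brackets; red points are at least 2-fold higher, blue ones at least 2-fold lower. Medians run from 1.94 for endothelial markers to −1.99 for amino acid supply genes, and the lists of CCL chemokines and prostaglandin genes have points beyond 2-fold on both sides.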

How the data were processed

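Per the study's methods, RNA of both infarct libraries was prepared from freshly sorted cells. Per the labels, libraries were made with a TruSeq stranded mRNA kit. The authors aligned reads to GRCm38 with the Tuxedo Suite. The deposited Cuffdiff tables hold FPKM values to which the authors had added 0.001, here removed. They also hold the authors' log2 fold changes, test scores, p-values and q-values, none of which was used. The Cuffdiff version is not given in the sources used here. The methods state paired ends and an Ensembl annotation, whereas the labels state single reads and the table has UCSC identifiers. In the sample records of the αSMA+ and the uninjured library the numbers in title and description differ.

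The main ratios used only the table of both infarct libraries. The ratio through the uninjured library used the other tables, which set FSP1+ and αSMA+ each against uninjured. Tables were scaled separately. Of 31930 entries, 8265 share a locus and were not named. The others were named where their span overlapped a gene of RefSeq GRCm38.p6 or GENCODE M21 by at least 0.8 of the union, with the next gene below 0.7 (18244 entries, 35 repeated symbols dropped). Entries that hold a small RNA gene numbered 590 of those measured. Genes under 1 FPKM in both libraries (7006) were left out. A pseudocount of 1 was added and 2-fold, the size the methods use, was counted as higher or lower. With 1 library a group, no test, SD or p was computed. Columns of samples outside the series numbered 0.

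Genes named are the reporter genes S100a4 and Acta2, the genes with the 30 highest and 30 lowest ratios among protein-coding genes with no small RNA gene, 1 FPKM in both libraries and 10 FPKM in either, the 20 most abundant of each, genes of at least 10 FPKM facing less than 0.1, and members of the 82 lists. Vcam1, Apln and Tacc3 enter as extremes. Some genes that meet this rule are not reported here. The members and lists were chosen with earlier results of these data known. The promoters were matched by symbol and synonym for 8820 of 11238 genes (78.5%), and GC and length came from 1 annotated transcript a gene. Alternatives were other pseudocounts, filters, scalings, a 4-fold size and leaving out small RNA entries. The calculation was tested on simulated data. The scripts ran under Python 3.11.15 with NumPy 2.4.6, matplotlib 3.10.9 and pandas 2.3.3.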

Additional observations from a re-analysis of the deposited data

How the results depend on the processing

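Against 2156 genes at least 2-fold higher and 1605 at least 2-fold lower (FSP1+ over αSMA+ by label), a pseudocount of 0.1 gave 2473 lower, and one of 5 gave 1105 higher and 647 lower. Keeping genes of at least 5 FPKM in either library gave 1040 lower, and of at least 1 FPKM in both 1043 lower, since genes near the minimum were left out. A size of 4-fold gave 404 higher and 246 lower. Other alternatives kept both counts within 1.5 times, among them centring within classes of length and GC (1486 higher, 1415 lower), which was chosen after seeing the data. No named gene past 2-fold changed sign under the alternatives run for named genes. Other pseudocounts and filters cannot change the sign of a gene, so they could not have shown such a change. Rescaling both libraries moved every named gene by less than 1.5 times. Of 79 list medians, 4 changed sign when both libraries were rescaled, 7 through the uninjured library, 6 with at least 1 FPKM in both and 11 after centring, none of them at 2-fold or more. The cause of these changes was not tested. No paired analysis was possible because each group has 1 library. Counting error could not be given without read numbers, and is widest for genes near 1 FPKM. An exact 0 in these tables can be a failed estimate.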

Other observations

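Long noncoding RNAs differed in balance from coding genes. Of 432 measured lincRNAs, 17 were higher and 150 lower by 2-fold or more in the library labelled FSP1+, with a median log2 ratio of −0.78 (centred −0.50), against a median of 0.09 over 10376 protein-coding genes. Among the 90 lincRNAs of at least 5 FPKM, 10 were higher and 47 lower, with a median of −1.09 (centred −0.81). Antisense transcripts had 6 higher and 21 lower of 75, with a median of −0.51, and how the counting used strand is not given in the sources used here.

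Among fatty acid genes, Gpihbp1, which carries lipoprotein lipase across capillary endothelium, had 493 FPKM in the library labelled FSP1+ and 66.3 FPKM in that labelled αSMA+ (log2 ratio 2.87). Acsl4, which activates arachidonic acid, had 7.94 FPKM (labelled FSP1+) against 91.1 FPKM (labelled αSMA+), a log2 ratio of −3.36. The list had 8 genes (32%) at least 2-fold higher and 3 (12%) lower of 25 measured, against 19.2% and 14.3% of all measured genes. It had 32 genes listed, with a median of 0.36 (centred 0.24, with 6 higher and 5 lower after centring). Among complement genes, C7, a part of the membrane attack complex, had 10.8 FPKM (labelled FSP1+) against 85.2 FPKM (labelled αSMA+), a log2 ratio of −2.86. The complement list had 4 (30.8%) at least 2-fold higher and 3 (23.1%) lower of 13 measured (23 listed), and 2 higher and 3 lower after centring. Over all measured genes the shares were 19.2% and 14.3%. Thbd (thrombomodulin), which turns thrombin toward anticoagulation, had 46.2 FPKM in the library labelled FSP1+ and 313 FPKM in that labelled αSMA+ (log2 ratio −2.74), in a coagulation list with 1 at least 2-fold higher and 6 lower of 18 measured (23 listed). Nos2, the inducible nitric oxide synthase, had 16 FPKM (labelled FSP1+) against 1.78 FPKM (labelled αSMA+), a log2 ratio of 2.61, in a vasoactive list with 5 at least 2-fold higher and 0 lower of 12 measured (19 listed). Among transcription factors, Meox2 had 31.7 FPKM in the library labelled FSP1+ and 4.98 FPKM in that labelled αSMA+ (log2 ratio 2.45) and Sox9 had 22.9 FPKM (labelled FSP1+) against 105 FPKM (labelled αSMA+), a log2 ratio of −2.15. That list had 5 (29.4%) at least 2-fold higher and 3 (17.6%) lower of 17 measured (28 listed), and 2 higher and 1 lower after centring. The shares over all measured genes were again 19.2% and 14.3%.

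Actr3, a subunit of the actin-branching Arp2/3 complex that most cells use, was at 118 FPKM in the library labelled FSP1+ and listed at 0 in that labelled αSMA+, so no ratio is given. In all, 110 measured genes were listed at 0 in the library labelled FSP1+ and 61 in that labelled αSMA+. Of these, 44 and 33 had 10 FPKM or more in the other library, and Actr3 was the only protein-coding one of them without a small RNA gene inside.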
